A study of Mus musculus with 20 samples.

Results

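Nuclear receptors are transcription factors, many of which are switched by small lipid-soluble ligands. The genes described here are 44 mouse nuclear receptor genes, which leave out the corticosteroid receptors and a few other family members. They were chosen by gene symbol from a deposited table of 39179 genes, and all 44 had a row. RNA was sequenced from 20 single podocytes, epithelial cells whose foot processes cover the glomerular capillaries. All were taken from a single 8-week-old C57BL/6 male of wild-type genotype; the sample labels spell the strain C56BL/6. Magnetic beads served to gather the glomeruli, and enzymes freed the cells. Single cells were captured, lysed and turned into cDNA on a Fluidigm C1 instrument, which is designed to keep each cell in its own well. Whether a well held more than 1 cell was not tested. There was 1 group and 1 animal, so nothing was tested between groups, and each SD is the spread between cells of this mouse. How these 20 cells were picked is not stated in the labels, and they are numbered here from 1 to 20. Fewer transcripts in a cell and loss of transcripts at capture or amplification cannot be told apart.

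Most nuclear receptors share a build, with a zinc finger domain that holds DNA and a pocket that holds the ligand. Retinoic acid, thyroid hormone, vitamin D, fatty acid and oxysterol receptors work as heterodimers with a retinoid X receptor (RXR). The REV-ERB and ROR receptors compete for the same DNA elements and set the rhythm of clock genes. In the kidney, HNF4 receptors belong to the proximal tubule, and ligands of several of these receptors, among them vitamin D, retinoids and PPAR-gamma agonists, have been studied for effects on podocytes.

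The reads assigned to genes, recovered from the deposited values, ranged from 4205562 to 10448491 per cell with a median of 6753753. Levels are in RPKM, the reads of a gene divided by its length in kilobases and scaled to 1000000 reads of the cell, and found means at least 1 RPKM in the cell in question. Of 20 podocyte markers a cell held 16 to 20, no proximal tubule marker of 11 was found in any cell, and 1 of 8 immune markers was found, in cell 5. In this sense the label podocyte held in every cell. Cells 5, 6, 10, 11 and 14 stood apart, with 7 to 10 of 14 mesangial and mural markers and a summed level of 2140 to 5564 RPKM over that list. The other 15 cells held at most 1 of these markers and summed to 0.210 to 84.7 RPKM. The mural genes Acta2, Tagln and Ren1 were found in none of the 20. Cell 8 held 12 of 16 endothelial markers. Plat, a gene of that list, was found in all 20 cells at a median of 682 RPKM, so the endothelial count of every cell includes it. Cells 5, 6, 10, 11 and 14, named below as cells with mesangial markers, also held 7, 4, 8, 4 and 5 endothelial markers. Cell 8 was the sole cell in which Tie1, Cdh5, Kdr, Flt1 or Pecam1 of the endothelial list reached 1 RPKM. The endothelial counts of cells 5, 6, 10, 11 and 14 thus rest on other genes of that list. Among these, Ehd3, Tek and Plvap had their highest values in cells 5, 11 and 10, at 172, 163 and 27.9 RPKM. In the cells with mesangial markers, a link of a gene to those markers cannot be told apart from a link to these other endothelial genes. These 6 cells had 3425 to 4977 genes found, and the other 14 cells had 2371 to 4082. Those 14 cells held 1 to 3 endothelial markers and at most 1 mesangial or mural marker. They are called cells without these markers, or without other markers, because they lay below 6 mesangial and 10 endothelial markers. The name does not mean that such markers were absent. Values over the 14 cells are given beside those over all 20 for the genes described by value. The part of other cell types' RNA in those values was not tested.

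Of the 44 genes, 19 were found in at least 1 cell, which is 43.2%, where 30% of all genes of the table and 46.5% of its protein-coding genes were found. The share of the receptors thus lay near that of protein-coding genes. Nr2f2, Rora, Nr1d1 and Nr1d2 were found in at least 10 cells. These 4 genes are 9.09% of the family, beside 6.43% of all genes and 11% of protein-coding genes. Counting any read at all, 30 of the 44 were present, or 68.2%, beside 40.5% of all genes and 58.2% of protein-coding genes. None of the 44 was found in every cell, where 0.664% of all genes and 1.11% of protein-coding genes were. Another 9 were found in 2 to 9 cells and 6 in 1 cell. Of the remaining 25, 11 had some reads but stayed below 1 RPKM, and 14 had no read in any cell. A gene found in 0 of 20 cells could by the exact binomial 95% interval still be found in up to 16.8% of such cells. Without the 6 cells set apart by other markers, 16 of the 44 were found; Nr2f1, Pparg and Esr1 were found only in cells of that set.

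**Figure D1:**
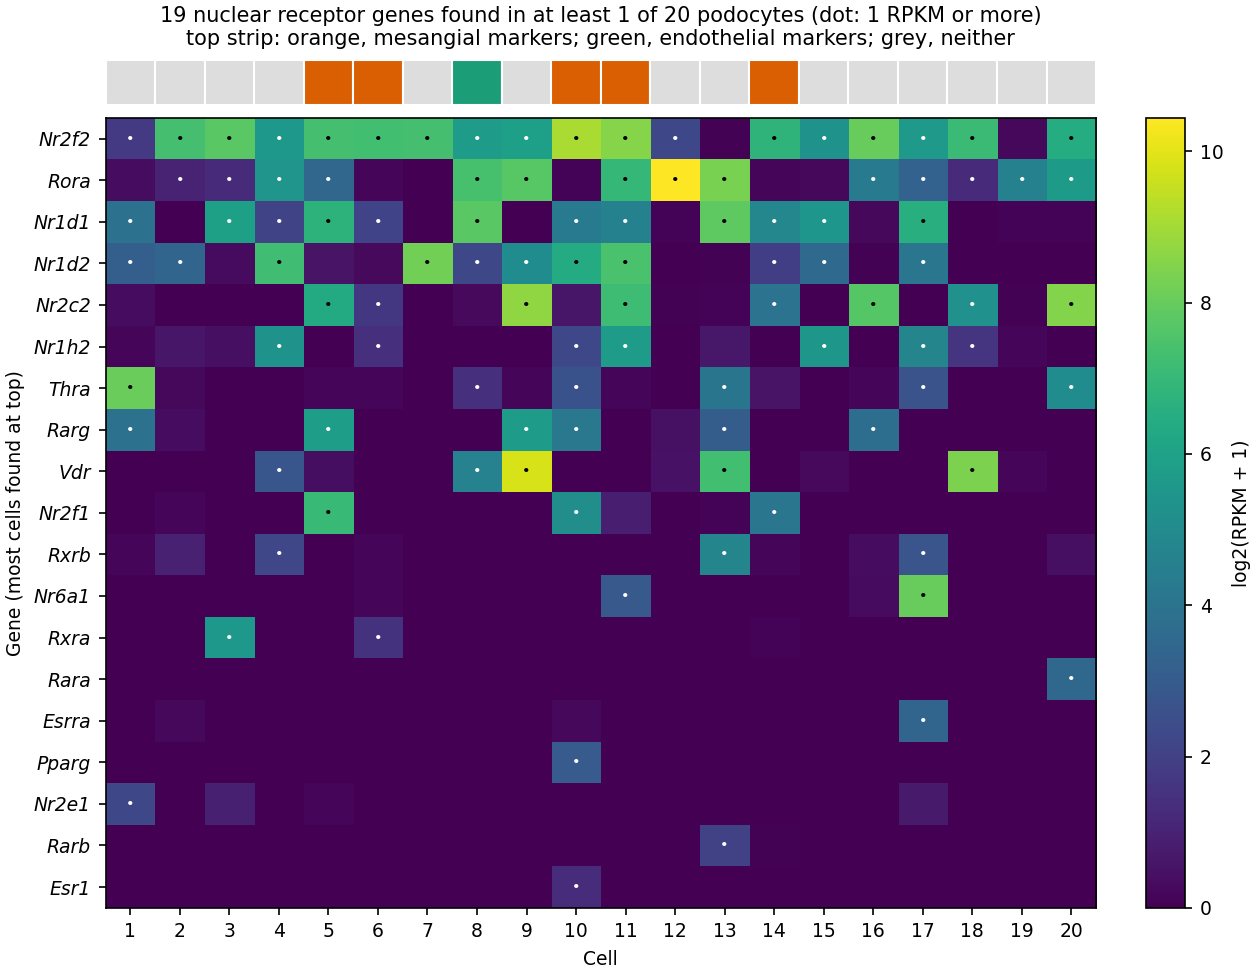
Heat map of log2(RPKM + 1) for the 19 receptor genes found in at least 1 cell (rows) in the 20 cells (columns); a dot marks a value of 1 RPKM or more. The strip above marks cells 5, 6, 10, 11 and 14 with mesangial markers in orange and cell 8 with endothelial markers in green. Nr2f2 is found in 18 columns, and most other rows are dark outside a few cells.

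The promoters of the 4 genes found in at least 10 cells are shown because the receptors that they encode all bind the hexamer AGGTCA. Each line gives the 250 bases before the RefSeq start site (build GRCm38.p6), 5′ to 3′ on the gene's own strand. Capitals mark AGGTCA on either strand or the E-box CACGTG, the element of the clock activators. Nr2f2 lies at chr7:70366747-70366996 on the minus strand, Rora at chr9:68653536-68653785 on the plus strand, Nr1d1 at chr11:98775378-98775627 on the minus strand and Nr1d2 at chr14:18239107-18239356 on the minus strand.
Nr2f2: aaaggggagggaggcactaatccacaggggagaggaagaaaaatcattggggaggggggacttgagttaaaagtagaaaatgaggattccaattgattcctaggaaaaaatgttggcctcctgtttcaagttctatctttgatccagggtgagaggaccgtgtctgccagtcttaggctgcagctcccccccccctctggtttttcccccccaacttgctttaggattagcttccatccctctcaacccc
Rora: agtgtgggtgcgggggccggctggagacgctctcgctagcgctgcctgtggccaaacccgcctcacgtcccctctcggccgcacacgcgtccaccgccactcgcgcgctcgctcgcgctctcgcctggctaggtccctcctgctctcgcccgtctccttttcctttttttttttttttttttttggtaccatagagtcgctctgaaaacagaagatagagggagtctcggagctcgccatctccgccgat
Nr1d1: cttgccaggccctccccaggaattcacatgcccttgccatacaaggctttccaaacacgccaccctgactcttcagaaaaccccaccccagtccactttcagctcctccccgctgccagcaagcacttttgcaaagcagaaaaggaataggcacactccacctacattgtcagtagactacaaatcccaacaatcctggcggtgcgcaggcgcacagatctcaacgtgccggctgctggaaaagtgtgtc
Nr1d2: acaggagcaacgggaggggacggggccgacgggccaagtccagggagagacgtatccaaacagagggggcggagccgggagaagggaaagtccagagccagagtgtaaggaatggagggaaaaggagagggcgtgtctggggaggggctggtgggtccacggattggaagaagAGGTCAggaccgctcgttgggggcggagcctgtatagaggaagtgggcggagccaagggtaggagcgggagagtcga
Of the 4 windows, that of Nr1d2 alone held AGGTCA, once, and none held CACGTG or a direct repeat, AGGTCA followed by any 2 bases and AGGTCA again. Among 32851 promoter windows of the same length, 14% held AGGTCA, 6.02% held CACGTG and 0.00913% held the repeat, each searched on both strands. A repeat also counts as AGGTCA. A match or its lack in these windows describes letters and not binding.

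Nr2f2 (ENSMUSG00000030551, chromosome 7, 70351944 to 70366735, build GRCm38) encodes COUP-TFII, an orphan receptor of mesenchyme, veins and the developing kidney, and was the most widely found of the family. It was found in 18 of 20 cells, or 90% (exact binomial 95% interval 68.3 to 98.8%), and had at least 1 read in all 20. Its lowest level was 0.0362 RPKM in cell 13, its median 97.9 RPKM and its highest 556 RPKM in cell 10, with a mean of 132 ± 140 RPKM (SD, n = 20 cells). The next highest value was 374 RPKM in cell 11, so both of the highest cells carried mesangial markers. In the remaining cells the gene was low in a few and between 38.8 and 260 RPKM in most. Cells 13 and 19 had 1 and 4 reads of it, and cells 1 and 12 had 45 and 91 reads at 2.39 and 3.82 RPKM. In the 14 cells without mesangial or endothelial markers it was found in 12. Over all 14 its median was 53.3 RPKM, its mean 87.5 ± 86.1 RPKM and its highest value 260 RPKM in cell 16. All 6 of the other cells held it, from 54.3 to 556 RPKM, and the ranges overlapped. Of all genes, 1.93% had a higher mean than Nr2f2 and 1.21% a higher median. Of its annotated exon bases, 7.46% lie opposite exons of a noncoding gene, B130024G19Rik, and the sources used here do not say whether reads were counted by strand.

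Nr2f1 (chromosome 13, 78188973 to 78199757), the close paralog that encodes COUP-TFI, was found in 3 cells. Cells 5, 10 and 14 had 129, 35.2 and 16.1 RPKM. Each of these 3 is among the 5 cells with mesangial markers. Of the other 2 cells with these markers, cell 11 had 0.844 RPKM and cell 6 none. No other cell had more than 0.106 RPKM, and without the 6 marker-bearing cells the gene was found nowhere. All 3 cells with Nr2f1 also held Nr2f2. An antisense gene, A830082K12Rik, shares 2.42% of the exon bases of Nr2f1, and it stood at 0.567, 0.224 and 1.44 RPKM in cells 5, 10 and 14.

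Nr2c2 (chromosome 6, 92091390 to 92174294), which encodes the orphan receptor TR4, was either high or close to 0. It was found in 8 cells and had a median of 0.238 RPKM. Where found, its lowest value was 2.21 RPKM in cell 6, its median 115 RPKM and its highest 414 RPKM in cell 9, followed by cells 20 and 16 with 361 and 205 RPKM. No cell without it exceeded 0.572 RPKM. Of the 8 cells, 4 were among the 14 without mesangial or endothelial markers, where the mean was 72.7 RPKM beside 63.3 RPKM over all 20. Exons of Mrps25, a mitochondrial ribosomal protein gene on the opposite strand, cover 30.7% of its exon bases. Mrps25 stood at 0 to 15.6 RPKM in the 7 cells with the highest Nr2c2, among them 10.8, 5.08 and 0 RPKM in cells 9, 20 and 16. In cell 6, with 2.21 RPKM of Nr2c2, it stood at 42.8 RPKM, and its highest value of 141 RPKM lay in cell 19, where Nr2c2 had 0.0466 RPKM. Nr2c1, the paralog that encodes TR2, had 1 read in all 20 cells. Of the other NR2 genes, Nr2e1, a receptor of neural progenitors, was found in cell 1 alone at 3.86 RPKM. Nr2f6 had 2 reads in all, and 54.4% of its exon bases are shared with Ocel1 on the other strand. The photoreceptor gene Nr2e3 had no read.

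**Figure D2:**
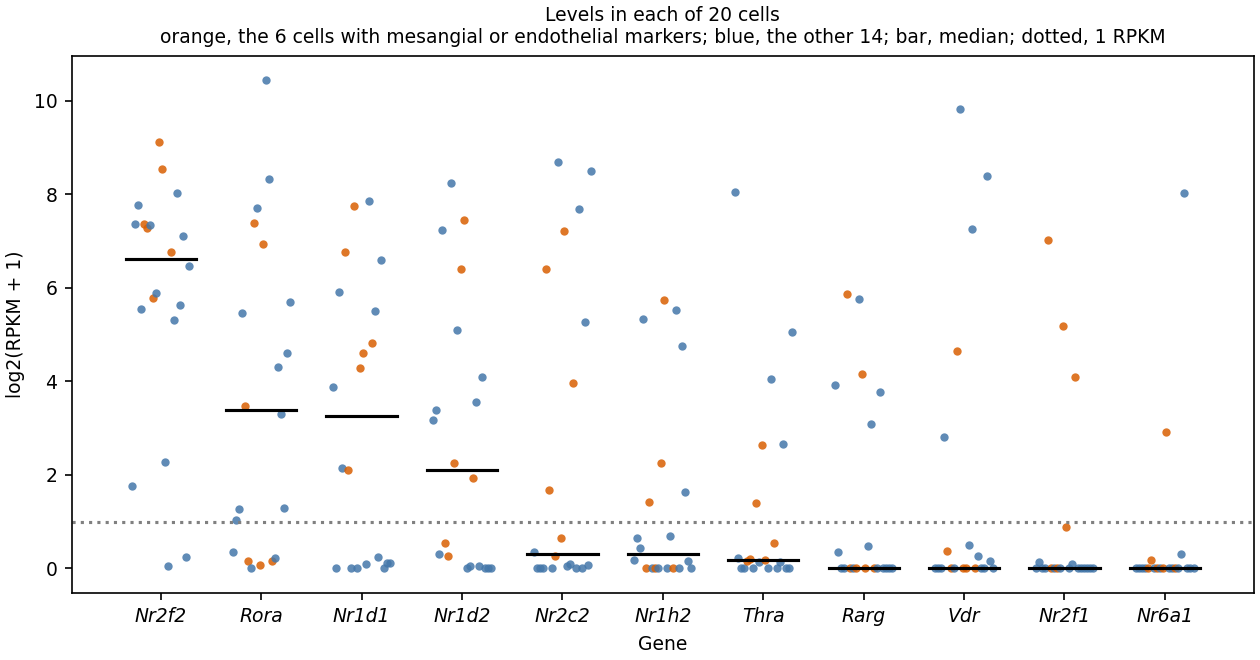
Level of the 11 receptor genes described by value, as log2(RPKM + 1), with 1 point per cell, the 6 cells with mesangial or endothelial markers in orange and the other 14 in blue; bars are medians over 20 cells and the dotted line is 1 RPKM. Nr2f2 has a median of 97.9 RPKM, while Rarg, Vdr, Nr2f1 and Nr6a1 have medians of 0 with separate high cells.

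At least 1 of the 4 REV-ERB and ROR genes was found in each of the 20 cells, more cells than for any other group. Such a count also grows with the number of genes in a group. Rora (chromosome 9, 68653786 to 69388246), which encodes the activator ROR-alpha, was found in 14 of 20 cells, or 70% (95% interval 45.7 to 88.1%). Its lowest level was 0 in cell 7, its median 9.45 RPKM and its highest 1390 RPKM in cell 12. That value was the highest of any of the 44 genes in any cell, rested on 31307 reads, and made up 99.6% of the summed receptor level of cell 12. Cells 13, 9 and 8 came next with 320, 209 and 168 RPKM. The mean was 118 ± 312 RPKM (SD, n = 20 cells), and 51.5 RPKM without cell 12. Rora was found in 11 of the 14 cells without mesangial or endothelial markers, where its median was 13.8 RPKM and its mean 148 ± 370 RPKM (SD, n = 14 cells), and in 3 of the 6 with them. Rorb, its paralog of retina and brain, had reads in 14 cells but never exceeded 0.410 RPKM, in cell 12.

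Nr1d1 (chromosome 11, 98767932 to 98775333), which encodes the haem-binding repressor REV-ERB-alpha, was found in 12 cells, or 60% (95% interval 36.1 to 80.9%). Its lowest level was 0, its median 8.57 RPKM and its highest 233 RPKM in cell 13, and cells 8, 5 and 17 followed with 216, 107 and 95.7 RPKM. Its mean was 42.3 ± 70.0 RPKM (SD, n = 20 cells). It was found in all 6 cells with mesangial or endothelial markers, at 3.28 to 216 RPKM with a median of 25.2 RPKM, and in 6 of the other 14. In those 14 its median was 0.135 RPKM and its mean 32.1 ± 64.8 RPKM (SD, n = 14 cells), so its median over 20 cells rested on the 6, while the highest cell, 13, is among the 14. Nr1d2 (chromosome 14, 18204054 to 18239127), which encodes REV-ERB-beta, was found in 11 cells, or 55% (95% interval 31.5 to 76.9%). Its lowest level was 0, its median 3.29 RPKM and its highest 300 RPKM in cell 7, followed by cells 11 and 4 with 175 and 151 RPKM, and its mean was 39.7 ± 79.7 RPKM (SD, n = 20 cells). Without cell 7 that mean was 26.0 RPKM, and over the 14 cells the median was 4.13 RPKM and the mean 37.8 RPKM. The difference between both REV-ERB means was smaller than the SD of either gene. These SDs are spreads between cells and do not measure the error of that difference, which was not tested.

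The paralogs Nr1d1 and Nr1d2 were not always found in the same cells. Both were found in 8 cells, Nr1d1 alone in cells 3, 5, 6 and 13, Nr1d2 alone in cells 2, 7 and 9, and neither in cells 12, 16, 18, 19 and 20. The Spearman correlation of their levels over the 20 cells was 0.07. With 20 cells and many values near 0, this value does not show that the levels of the paralogs are unrelated. Rora was found in each of the 5 cells with neither, at 1.47 to 1390 RPKM, so that every cell held at least 1 of the 3 genes. This pattern was noticed after the values were seen. Rora was found together with Nr1d1 or Nr1d2 in 9 cells, and all 3 in cells 4, 8, 11 and 17. The 6 pairs among Nr2f2, Rora, Nr1d1 and Nr1d2 had Spearman correlations from -0.38 (Nr2f2 with Rora) to 0.28 (Nr2f2 with Nr1d2), with a median of -0.01. The cells share library depth and the number of genes found, and the level of Nr1d1 had a correlation of 0.52 with the number of genes found and that of Rora one of 0.58 with the reads of the cell. These are descriptions over 20 cells of 1 mouse.

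The thyroid hormone and vitamin D receptor genes were high in a few cells each. Thra (chromosome 11, 98740638 to 98769006), which encodes the thyroid hormone receptor TR-alpha and its splice form that does not bind hormone, was found in 6 cells. Cell 1 stood out with 265 RPKM from 1813 reads, cells 20 and 13 had 32.5 and 15.5 RPKM, and cells 8, 10 and 17 had 1.65 to 5.37 RPKM. No other cell exceeded 0.457 RPKM. Its mean of 16.3 RPKM fell to 3.23 RPKM without cell 1, and was 22.7 RPKM over the 14 cells without other markers. Thra and Nr1d1 lie tail to tail and share 263 exon bases, 5.70% of those of Thra and 8.55% of those of Nr1d1, so reads of either there cannot be told apart without strand. Cells 8 and 13 with the highest Nr1d1 had 1.65 and 15.5 RPKM of Thra, and cell 1 with the highest Thra had 13.7 RPKM of Nr1d1. Thrb, the paralog on chromosome 14, had reads in 6 cells and at most 0.136 RPKM.

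Vdr (chromosome 15, 97854425 to 97910630), the vitamin D receptor gene, was found in 5 cells. It reached 901 RPKM with 9751 reads in cell 9, and cells 18, 13, 8 and 4 had 333, 153, 24 and 6.02 RPKM. The other 15 cells had 0 to 0.421 RPKM. Its mean of 70.9 ± 211 RPKM (SD, n = 20 cells) was 27.2 RPKM without cell 9, and 99.6 RPKM over the 14 cells without other markers, of which 4 held the gene. Vdr was the leading receptor gene of cells 9 and 18. Cyp24a1, which breaks down active vitamin D and is a classic target of the receptor, had no read in any cell, and nor did Cyp27b1, which makes the active form, Trpv5, Trpv6, S100g or Cubn. Of the 9 genes of vitamin D handling and targets, Cyp2r1 was found in 2 cells, at up to 61.0 RPKM in cell 10. Calb1 was found in 2, at no more than 1.62 RPKM. The other 7 were found in none, where 46.5% of protein-coding genes were found.

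Of the 6 retinoid receptor genes, 5 were found, each in few cells, where 46.5% of protein-coding genes were found in at least 1 cell. At least 1 of them was found in 11 cells, a count that grows with the number of genes in a group. Rarg (chromosome 15, 102234938 to 102257517), the retinoic acid receptor gamma gene, was found in 6 cells. Cells 5 and 9 had 57.2 and 53.0 RPKM, and cells 10, 1, 16 and 13 had 17, 14.2, 12.7 and 7.46 RPKM. In the other 14 cells it did not exceed 0.398 RPKM. Its mean was 8.11 RPKM over all 20 cells and 6.29 RPKM over those without mesangial or endothelial markers. Rara was found in cell 20 alone, at 10.7 RPKM from 157 reads, and Rarb in cell 13 alone, at 3.12 RPKM from 89 reads. Exons of Top2b on the opposite strand cover 34.1% of the exon bases of Rarb, and Top2b stood at 276 RPKM in cell 13. Cells 1 and 9 had 667 and 743 RPKM of Top2b and no read of Rarb.

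The RXR genes, whose products pair with the receptors for retinoic acid, thyroid hormone, vitamin D, fatty acids and oxysterols, were found in 5 cells in all. Rxra was found in cell 3 at 46.2 RPKM from 705 reads and in cell 6 at 1.88 RPKM, and had 1 read elsewhere. Rxrb was found in cells 13, 17 and 4 at 26.0, 5.83 and 3.61 RPKM, with at most 0.956 RPKM elsewhere, and Rxrg had no read. At least 1 of the 11 partner receptor genes was found in 14 cells. In 4 of these, cells 4, 6, 13 and 17, an RXR gene was found too. In the other 10 none was, and in 7 of those, cells 5, 8, 9, 10, 11, 15 and 18, no RXR gene had a read. With an RXR gene found in 5 cells, no more than 5 could hold both. Of these 5, cell 3 alone held no partner gene. These counts do not show that RXR genes were missing more often from cells with a partner gene than from other cells, which was not tested. An RXR gene without a read could lie at up to 3 reads, which for Rxra is 0.129 to 0.320 RPKM over the cells. These limits cover counting error only, since amplified reads are not independent molecules.

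The PPAR genes were at or near 0 in all cells but 1. Pparg, the master regulator of fat cells and target of the glitazones, was found in cell 10 alone, at 7.08 RPKM, a cell with mesangial markers. Ppard reached 0.423 RPKM in cell 13 and had no other read, and Ppara had none. Of 16 PPAR target genes, 10 were found and 3 in at least 10 cells, where 46.5% of protein-coding genes were found and 11% in at least 10 cells. These 3 were Ucp2, a mitochondrial carrier, found in 18 cells, and the fatty acid dehydrogenase genes Acadm and Acadl, found in 11 cells each. Their medians over all 20 cells were 181, 17 and 2.12 RPKM. Ehhadh, Cyp4a10 and Cyp4a14 had no read.

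Among sterol, bile acid and xenobiotic receptors, Nr1h2 was the sole gene found. Nr1h2 (chromosome 7, 44549616 to 44553951), the gene of the widely expressed oxysterol receptor LXR-beta, was found in 7 cells. Cells 11, 15, 4 and 17 had 52.1, 45.0, 39.5 and 25.9 RPKM, and cells 6, 10 and 18 had 1.66 to 3.79 RPKM. Its highest value rested on 422 reads, and its mean was 8.59 RPKM over all 20 cells and 8.16 RPKM over the 14 without other markers. Nr1h3, the gene of LXR-alpha, had no read, nor had Nr1h4 and Nr1i2, the genes of the bile acid receptor FXR and the xenobiotic receptor PXR. Nr1i3, the gene of the xenobiotic receptor CAR, had 1 read, and 74.9% of its exon bases are shared with Tomm40l on the other strand. Of 14 sterol and bile acid genes, 8 were found and 3 in at least 10 cells, beside the same 46.5% and 11% of protein-coding genes. The 3 were Scd2, a fatty acid desaturase, found in 19 cells, and the sterol exporter gene Abcg1 and Mylip, found in 12 each. Their medians over all 20 cells were 26.9, 34.3 and 1.85 RPKM.

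Sex steroid and oestrogen-related receptor genes were at or near 0 in nearly all cells. Esr1, the oestrogen receptor alpha gene, was found in cell 10 alone at 1.53 RPKM from 25 reads, like Pparg in a cell with mesangial markers. Esr2 had reads in 8 cells but at most 0.783 RPKM, in cell 7, and Pgr had none. Esrra, whose product drives mitochondrial genes, was found in cell 17 alone at 9.53 RPKM. Esrrg had 2 reads in all and Esrrb none. Hnf4a had no read, and Hnf4g at most 0.0375 RPKM, and proximal tubule markers were likewise found in no cell.

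The NR4A genes, which tissue handling can induce within minutes to hours, were found in no cell. Nr4a1 had 18 reads in cell 5, at 0.865 RPKM, and 1 read elsewhere. Nr4a2 had 4 reads in all, and Nr4a3 had none. Nr6a1 (chromosome 2, 38723370 to 38927688), the germ cell nuclear factor gene, was found in 2 cells, 17 and 11, with 260 and 6.6 RPKM. Its other values did not exceed 0.235 RPKM, and the mean of 13.3 RPKM was 0.367 RPKM without cell 17 and 18.6 RPKM over the 14 cells without other markers. Nr5a1, Nr5a2, Nr0b1 and Nr0b2, genes of steroid-making tissue, liver and gonads, had no read. Over the 14 genes without a read, 3 reads would have stood for 0.0679 to 0.630 RPKM, with the mean annotated transcript as length.

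Cells differed in which receptor gene led. A cell held a median of 5 of the 44 genes, with an SD of 2.16 over the 20 cells. Over all 39179 genes of the table, the median was 3306 genes found per cell. Cell 19 held 1, Rora, and cells 10 and 17 held 9. Nr2f2 had the highest level in 8 cells, Rora in 3, Nr1d2 and Vdr in 2 each, and Nr1d1, Nr1h2, Nr2c2, Nr6a1 and Thra in 1 each. The leading gene took 29.8% to 99.6% of the summed receptor level of a cell, with a median of 64.3%. The summed level had a median of 472 RPKM. It was lowest in cell 19, at 23.8 RPKM of which Rora made up 23.2, and highest in cell 9, at 1669 RPKM.

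**Figure D3:**
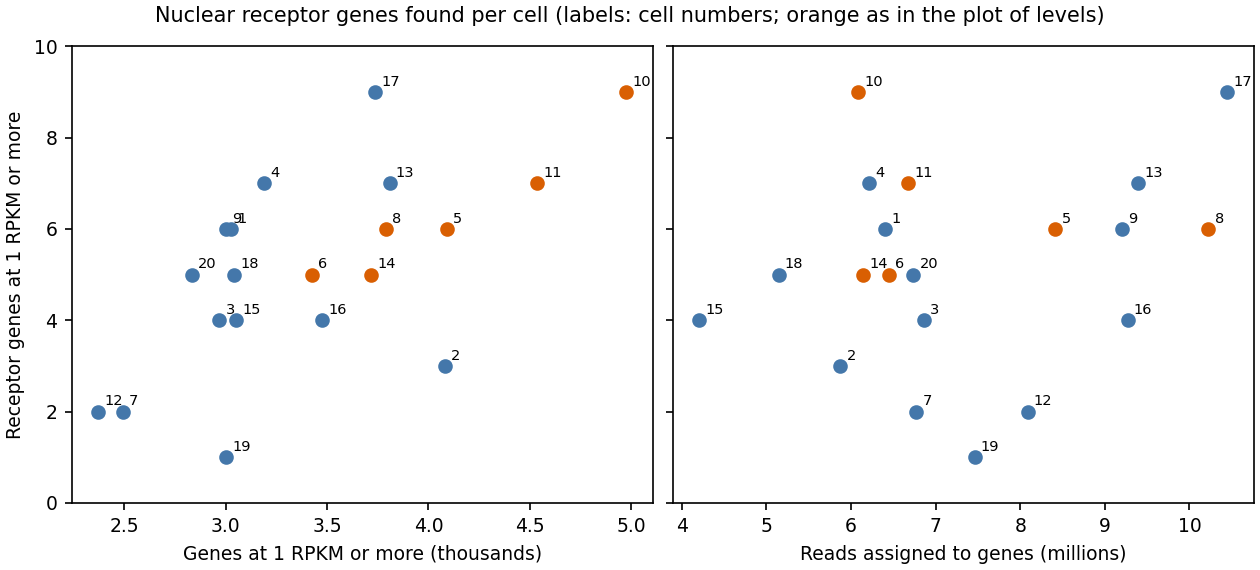
Number of the 44 receptor genes at 1 RPKM or more in each cell (vertical axis) against all genes found in that cell (left, in units of 1000 genes) and against reads assigned to genes (right, in units of 1000000 reads); points are cells with their numbers. The number of receptor genes rises with the number of genes found, from 2 in cell 12 with 2371 genes to 9 in cell 10 with 4977.

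Cells with more genes found held more receptor genes, with a Pearson correlation of 0.63 and a Spearman correlation of 0.60 over the 20 cells. Without cells 10 and 11, the farthest from the median number of genes, the Pearson correlation was 0.49. With reads per cell the values were 0.24 and 0.15, and 0.01 without cells 8 and 17. The 6 cells with mesangial or endothelial markers held 5 to 9 receptor genes and the other 14 held 1 to 9, and as given above the 6 also had more genes found.

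**Figure D4:**
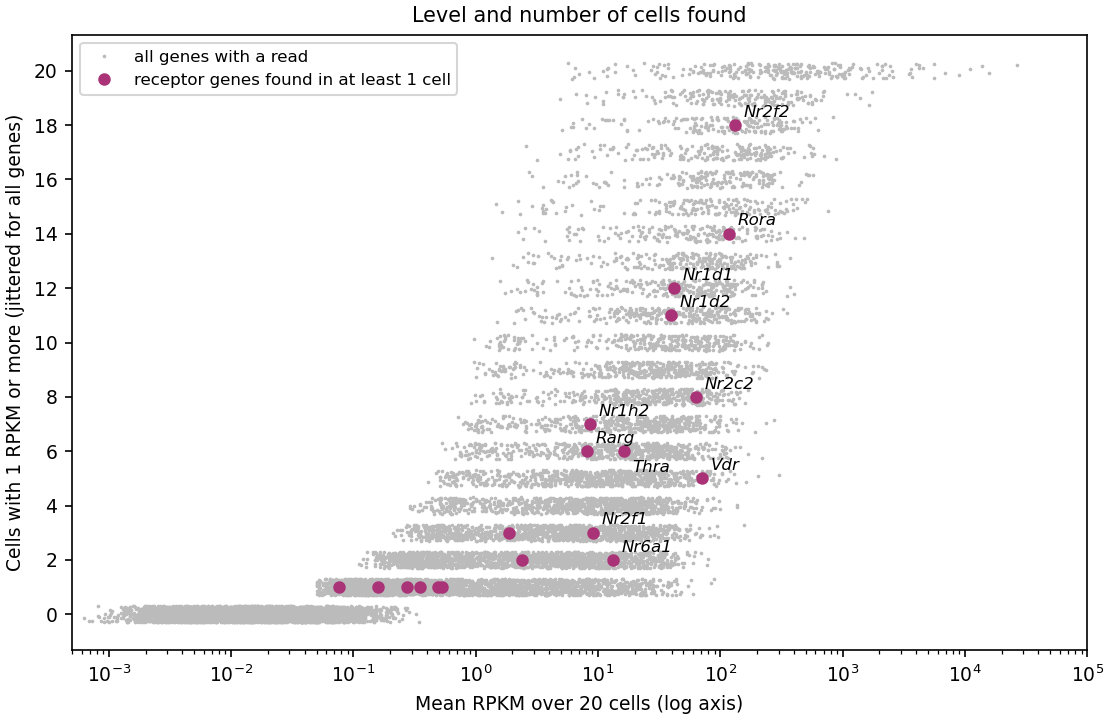
Mean RPKM over the 20 cells (log axis) against the number of cells at 1 RPKM or more, for all genes with a read (grey, jittered vertically) and for the 19 receptor genes found in at least 1 cell (purple). Nr2f2 lies at a mean of 132 RPKM and 18 cells, and Vdr and Nr6a1 lie to the right at 5 and 2 cells, where a few high cells make up the mean.

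The receptor genes that were found were found in few cells, like protein-coding genes in general. The 19 genes had a median of 3 cells and a median highest value of 57.2 RPKM, beside 4 cells and 133 RPKM for the 9878 protein-coding genes found in at least 1 cell. Each set includes genes because a cell reached 1 RPKM, so these medians describe the genes that passed and not the whole family. The level of a gene here depends on the length behind the values. For Rora that was 2785 bases against a longest transcript of 10878, and for Nr2f2 2942 against 4222. With the longest transcript as length, the means of Nr2f2 and Rora were 91.9 and 30.3 RPKM, and these 2 genes remained first and second.

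Coregulators, the proteins through which receptors act on chromatin, were described from lists of 17 coactivator and 12 corepressor genes. Of the coactivators, 16 were found, and 3 in at least 10 cells, where 46.5% of protein-coding genes were found and 11% in at least 10 cells. Med1, the Mediator subunit that contacts receptors with bound ligand, had a median of 116 RPKM and was found in 17 cells. Ncoa3, a steroid receptor coactivator, and Crebbp, an acetyltransferase, were found in 12 cells each, at medians of 11.9 and 2.58 RPKM. Ppargc1a, the coactivator of mitochondrial biogenesis, reached at most 0.250 RPKM. Of the corepressors, 10 were found and 1 in at least 10 cells. This was Ncor1, which REV-ERB and ligand-free receptors recruit, found in 15 cells, with a median over all 20 cells of 61.6 RPKM. Hr and Sap30 had no read.

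Of the 18 circadian clock genes, 12 were found, and 4 in at least 10 cells, beside 46.5% and 11% of protein-coding genes. Per3, a period gene, had the highest median, at 24.1 RPKM in 12 cells, and Clock and Tef were found in 10 cells each. Arntl, the activator that REV-ERB represses, and Cry1 had no read in any cell, and Per2, Npas2, Nfil3 and Ciart stayed below 1 RPKM. The labels do not give the time of day of collection.

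The remaining lists hold genes that supply or clear ligands, and target genes, and their counts stand beside 46.5% of protein-coding genes found and 11% in at least 10 cells. Of 17 retinoid genes, 6 were found, and Dhrs3, a retinal reductase, was the 1 found in at least 10 cells, in 12. Its median over all 20 cells was 61.4 RPKM. Stra6, Lrat, Aldh1a1, Crabp1, Crabp2, Cyp26a1 and Cyp26c1 had no read. Of 9 thyroid hormone genes, 2 were found, namely the target Klf9 in 9 cells and Crym in 1, and the deiodinase genes Dio1 and Dio3 had no read. Of 8 xenobiotic targets, 2 were found. Of 7 measured genes of sex steroid supply, 4 were found, with Hsd17b4 and Hsd17b12 in 12 cells each, and Hsd17b1 and Gper1 had no read. Over these 10 lists, 72 of 127 genes were found, which is 56.7%, beside 46.5% of protein-coding genes, and none in every cell.

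**Figure D5:**
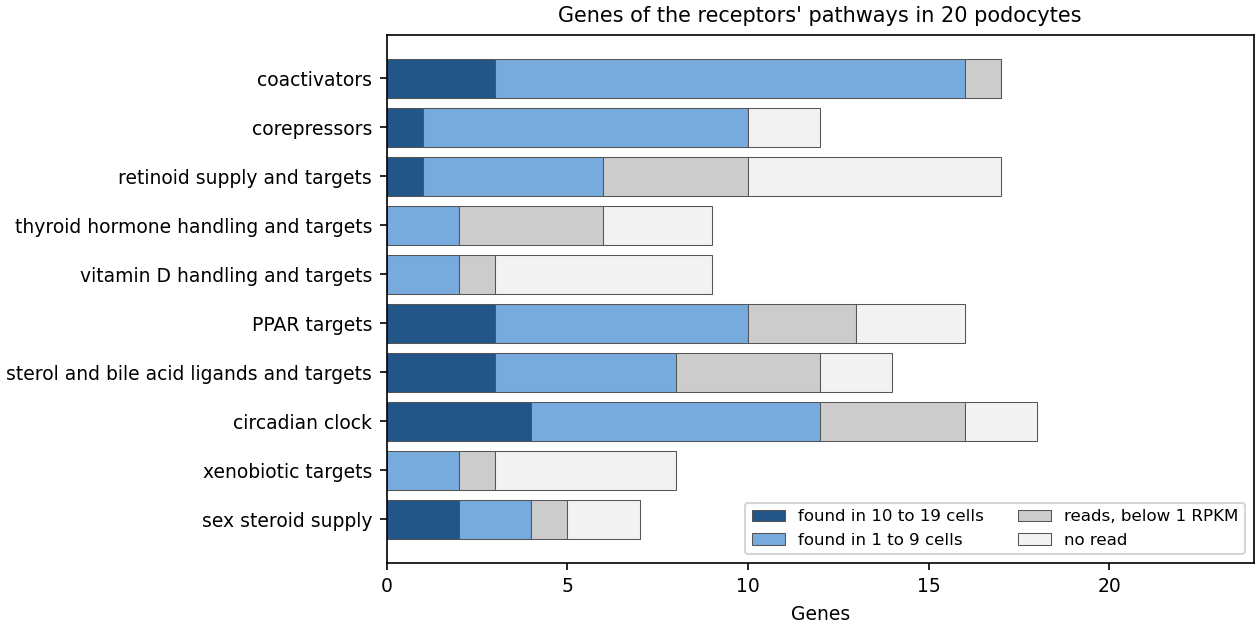
Number of genes of each of the 10 pathway lists (bars) by how widely they were found in the 20 cells: in 10 to 19 cells, in 1 to 9 cells, with reads but below 1 RPKM, or with no read. Coactivators have 16 of 17 genes found, and vitamin D genes 2 of 9.

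Among the nuclear receptor genes outside the 44, Nr3c1, the glucocorticoid receptor gene, had a median of 31.1 RPKM and was found in 11 cells. Both values lay below the 97.9 RPKM and 18 cells of Nr2f2. Its median was above that of Rora, 9.45 RPKM, but Rora was found in more cells, 14. By mean, Nr3c1 stood at 158 RPKM, above Nr2f2 and Rora at 132 and 118 RPKM. Nr3c2 was found in 2 cells, and Nr1h5 stayed below 1 RPKM.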

How the data were processed

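The authors deposited a table of RPKM values for 39179 Ensembl genes in 20 cells, per the file header. The submitters' processing notes name build GRCm38, TopHat2 2.0.12 and HTSeq 0.6.1; settings, gene lengths and use of strand are not given in these sources. The 44 genes were matched by the table's symbols, whose letter case varies, and all had the same Ensembl ID in GENCODE M21. The 1 blank cell of the table was read as 0. Totals of reads were recovered from genes with 1 annotated transcript, whose values are whole multiples of 1 read. A length giving whole reads, within 0.001 read, was then sought for each receptor gene. Of the 30 genes with reads, 20 had a settled length, of which 14 had the mean length of the gene's transcripts. For the other 10 several lengths could be fitted, the one nearest that mean was taken, and no reads are printed. Tested on simulated data, the recovery returned every total put in, and each length it settled was right, while some lengths stayed unsettled. The sequences are RefSeq promoters, which 41 of the 44 genes matched.

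Values were described by range, median, mean and SD over cells, shares of cells by exact Clopper-Pearson intervals, and no p-value was computed, because there is 1 group. The members, lists and marker rules were chosen with earlier results of these data known. Genes given by value were those found in at least 10 cells or reaching 50 RPKM. From each pathway list the text names mainly up to 5 genes with the highest medians and genes without a read; Crym, Cyp2r1, Calb1, Ppargc1a, Per2, Npas2, Nfil3 and Ciart were named after their values were seen. Cells stood apart with at least 6 mesangial or 10 endothelial markers. Alternatives were detection above 0 RPKM, at 5 RPKM and at 3 reads, rescaling each cell to a sum of 1000000, other lengths and correlations, and leaving out cells. Python 3.11.15, pandas 2.3.3 and scipy 1.17.1 were used. Sts was not analysed here, and a few genes of the lists are not reported here.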

Additional observations from a re-analysis of the deposited data

How the results depend on the processing

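The threshold for calling a gene found set most counts. Above 0 RPKM, 30 of the 44 genes were found in at least 1 cell, 8 in at least 10 cells and 1, Nr2f2, in every cell, with a median of 10.5 per cell. At 5 RPKM these counts were 16, 3 and 0, with a median of 4 per cell, and at 3 recovered reads they were 24, 6 and 0, with a median of 7. The 24 include genes for which several lengths could be fitted, so their reads rest on an assumed length. Without the 6 cells with mesangial or endothelial markers, 16 genes were found and 2 in at least 10 of the 14 cells left; as a setting chosen after seeing the data, 3 were found in at least 7 of those 14, namely Nr2f2, Rora and Nr1d2. Rescaling and leaving out cell 12, which had the fewest genes, gave 21 and 19 genes found and 4 in at least 10 cells with both. The median correlation between the 4 most widely found genes lay between -0.20 and -0.03 in 3 alternatives. Over the pathway lists, 95 genes were found above 0 RPKM and 68 at 5 RPKM. The means of the 11 genes given by value moved by less than their SD over cells in every alternative, but those SDs are as large as the means or larger. With the longest transcript as length, Vdr moved from rank 3 to rank 6 by mean. For Nr2f1 the mean without the 6 cells was 0.0124 RPKM against 9.08. Depth limits statements on genes with no read to the level of 3 reads.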
